A study of Mus musculus with 11 samples.

Results

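Among 6 RNA libraries of Sca-1-negative (Sca-1neg) epidermal stem cells sorted from mouse back skin, 3 carried a large load of liver transcripts. Those 3, of 11 libraries in the whole series, are described here against the other 3 Sca-1neg libraries. They were chosen by a measured value, an albumin (Alb) level above 1000 CPM (the usual unit in which a gene count is scaled to the same total over all genes in every library). The lowest of the 3 stood at 4547 CPM and the highest of the other 3 at 37.2 CPM. Since the choice used the same libraries in which every gene was read, differences between both sets are given as descriptions, with the value in each library and with no test. Tests were made only between the groups that the labels give.

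All 11 libraries came from male CD4Cre R26-tdT mice on the C57Bl6/N background, from whose dorsal skin the cells were taken; in these mice Cre recombinase expressed from the CD4 promoter switches on the red tracer tdTomato (tdT). CD4 is a T lymphocyte coreceptor, so tdT marks cells whose history includes activity of that promoter. Epidermis was loosened with thermolysin, and cells were sorted by flow cytometry (FACS) as CD49f+CD34+, then by Sca-1 and by tdT. The 4 groups were Sca-1neg tdT+ (n = 3), Sca-1neg tdT- (n = 3), Sca-1+ tdT+ (n = 3) and Sca-1+ tdT- (n = 2). Each library pooled the cells of 2 mice, aged 29 weeks for every replicate 1 and 32 weeks for all others. The 3 liver-transcript libraries were Sca-1neg tdT+ replicate 1, the library labelled tdT+ replicate 2 of Sca-1neg cells, and Sca-1neg tdT- replicate 2. The other 3 were Sca-1neg tdT+ replicate 3 and Sca-1neg tdT- replicates 1 and 3. Both tdT labels and both ages thus occurred in each set. Where values follow each other without names below, they stand in this order.

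Total gene counts lay between 17409131 and 46542177 per library, and 2 of the 3 liver-transcript libraries lay inside the range of the other 3. The deposited tdT tracer entry checked the labels. It read 133 CPM in Sca-1neg tdT+ replicate 1 and from 224 to 307 CPM in 4 other tdT+ libraries, against 2.54 to 4.89 CPM in the 5 tdT- libraries. In the library labelled tdT+ replicate 2 of Sca-1neg cells it read 2.05 CPM, which goes against that label. CPM is not corrected for transcript length, so levels are compared between libraries for a gene and not between genes.

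Hepatocytes, the main cells of the liver, secrete most proteins of blood plasma, among them albumin, the apolipoproteins of lipoprotein particles, the fibrinogen chains and the protease inhibitors of the serpin family. A small group of transcription factors, including HNF1 and HNF4 alpha, drives these genes in the hepatocyte. The hair follicle bulge, which the CD34 and CD49f (integrin alpha 6) gate collects, holds slowly cycling keratinocyte stem cells that express Krt5, Krt15 and Sox9.

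Alb, the main protein of plasma, stood at 8521, 4547 and 5861 CPM in the liver-transcript libraries against 37.2, 3.16 and 5.04 CPM in the others. The gene lies on chromosome 5 at 90460897 to 90476602 (GRCm38). Apoa1, the main protein of high-density lipoprotein (chromosome 9, 46228580 to 46230466), stood at 1153, 736 and 851 CPM against 5.55, 0.41 and 0.91 CPM. The ratio of the set means was 417 for Alb and 399 for Apoa1. In the 5 Sca-1+ libraries Alb ranged from 6.31 to 18.1 CPM and Apoa1 from 0.82 to 2.36 CPM, so that no Sca-1+ library came near the 3.

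**Figure D1:**
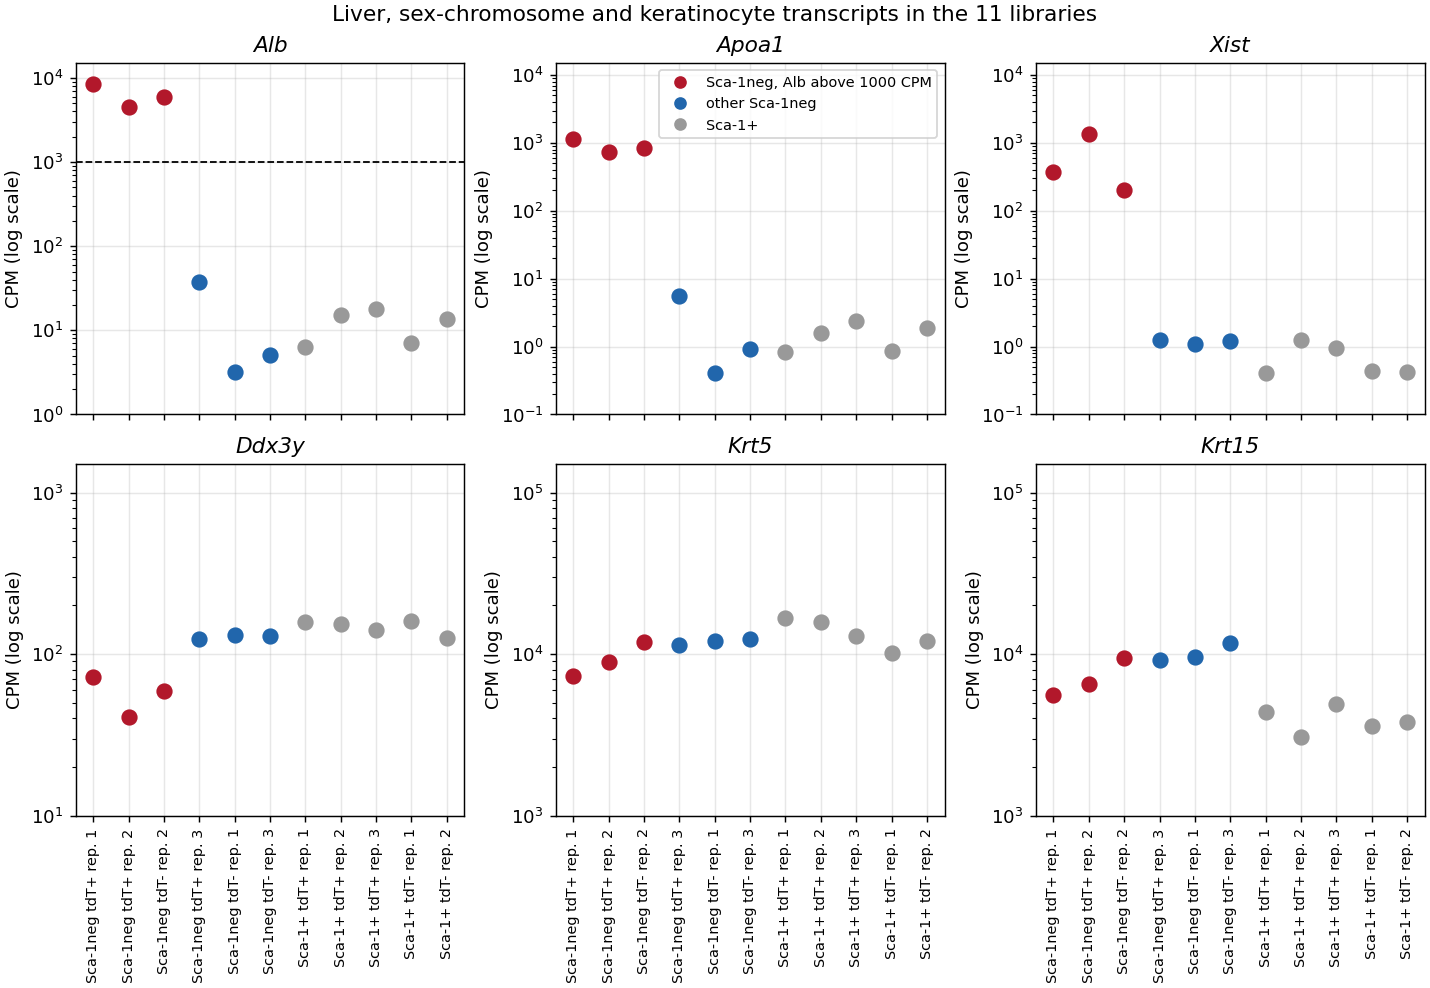
Level of 6 genes (CPM, log axis) in all 11 libraries, 1 point per library, with the 3 liver-transcript libraries in red, the other Sca-1neg libraries in blue and the Sca-1+ libraries in grey; the dashed line in the Alb panel is the threshold of 1000 CPM. The red points stand apart upward for Alb, Apoa1 and Xist and downward for Ddx3y, and overlap the blue ones for Krt5.

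To list the genes that moved with albumin, a gene was called when no library of one set overlapped the other set and the ratio of the set means was at least 4, with counts under 3 in a library set to 3. Of 32697 genes detected in the 6 libraries, 1880 (5.75%) were called higher in the liver-transcript libraries and 19 (0.0581%) lower. Each count of genes called higher on a list below is to be read beside that share of 5.75%. The genes called higher held 16.4%, 9.79% and 9.55% of all counts in the 3 libraries, against 0.769%, 0.449% and 0.470% in the others and 0.525% to 2.70% in the Sca-1+ libraries. Among these 1880 were 1331 protein-coding genes, 426 long noncoding RNA genes and 90 pseudogenes. The 20 with the most counts made up 61.5%, 58.1% and 60.8% of the set's counts. Only 414 of them reached a mean of 20 CPM in the 3 libraries, and 117 reached 100 CPM. The floor of 3 counts was 0.166 CPM in the library labelled tdT+ replicate 2 of Sca-1neg cells and 0.165 CPM in Sca-1neg tdT+ replicate 3. A gene could therefore be called with fewer than 3 counts in the former, and 1 pseudogene entry was called with 0 there. Leaving out Sca-1neg tdT+ replicate 3, the library with the highest albumin among the other 3, raised the number called higher to 3864. None of the 19 genes called lower averaged 20 CPM in the other libraries, and the highest of them averaged 2.46 CPM.

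Of the hepatocyte plasma protein genes on a list of 45, 44 were called higher, with a median log2 ratio of 8.69 over the list. The 45 genes together held 51405, 28381 and 30059 CPM in the 3 libraries, 236, 58.5 and 62.7 CPM in the others and 57.0 to 145 CPM in Sca-1+ libraries. Apob, the scaffold of very low density lipoprotein, stood at 4525, 2433 and 2146 CPM against 14.5, 1.5 and 2.04 CPM. Hpx, the heme carrier hemopexin, stood at 4191, 2259 and 2351 CPM against 16.1, 3.14 and 3.83 CPM. In both genes Sca-1neg tdT+ replicate 1 was the highest library, and Sca-1neg tdT+ replicate 3 was the highest of the other 3. Hp, which encodes the hemoglobin binder haptoglobin, stood at 4091, 2251 and 2269 CPM against 14.5, 1.40 and 1.87 CPM. Fga, the alpha chain of the clotting protein fibrinogen, stood at 3203, 1834 and 1937 CPM against 12, 1.05 and 1.65 CPM. The same order of libraries held for Pzp, a broad protease inhibitor of mouse plasma, at 2460, 1291 and 1270 CPM in the liver-transcript libraries.

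Promoters of 3 plasma protein genes are shown because a known element of liver promoters lies in them close to the start. It is the half-site of the factor HNF1. Most plasma protein promoters lacked its letters in the wider window counted below. The sequences below are the 120 bases before the start of transcription in the RefSeq annotation of GRCm38.p6, read in the direction of the gene, with the letters GTTAAT or their reverse complement ATTAAC in capitals. Krt5, a keratin of basal keratinocytes, is given beside them as a skin gene with no such letters in that stretch. The windows are chr5:90460750-90460869 on the plus strand for Alb, chr3:83026033-83026152 on the plus strand for Fga, chr12:103863620-103863739 on the minus strand for Serpina1a, which encodes the elastase inhibitor alpha-1 antitrypsin, and chr15:101712906-101713025 on the minus strand for Krt5.
Alb: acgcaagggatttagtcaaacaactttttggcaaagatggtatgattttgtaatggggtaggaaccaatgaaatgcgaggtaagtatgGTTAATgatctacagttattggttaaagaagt
Fga: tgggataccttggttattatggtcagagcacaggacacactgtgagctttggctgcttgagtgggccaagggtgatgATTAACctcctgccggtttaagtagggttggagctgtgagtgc
Serpina1a: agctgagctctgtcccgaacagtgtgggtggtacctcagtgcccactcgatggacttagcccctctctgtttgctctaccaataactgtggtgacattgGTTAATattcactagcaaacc
Krt5: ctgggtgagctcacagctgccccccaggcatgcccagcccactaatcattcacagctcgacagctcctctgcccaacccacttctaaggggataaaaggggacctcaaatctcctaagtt
The first base of the capitals lies 32, 43 and 21 bases before the start in Alb, Fga and Serpina1a. In the window from 250 bases before to 50 bases after the start, GTTAAT or ATTAAC occurred in 16 of 36 plasma protein genes with a RefSeq promoter (44.4%). The share over all 27025 genes of that table was 8.24% (2228 genes), over the genes called higher 13.8% (151 of 1094), over the hepatocyte metabolism list 12.1% (4 of 33), over the basal keratinocyte list 7.69% (1 of 13) and over the bulge stem cell list 18.8% (3 of 16). Short lists of other organs gave high shares too, 3 of 8 cholangiocyte genes (37.5%) and 4 of 12 kidney genes (33.3%). A match is a description of the letters and not a measured binding site.

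Enzymes of liver metabolism followed the plasma proteins. Of 45 genes on that list, 43 were called higher, with a median log2 ratio of 7.82. Mat1a, which makes S-adenosylmethionine in hepatocytes, stood at 1528, 867 and 921 CPM against 5.39, 0.623 and 0.835 CPM. Cps1, the entry enzyme of the urea cycle, stood at 1140, 519 and 560 CPM against 5.17, 1.48 and 2.26 CPM. Cyp2e1, a cytochrome P450 that oxidises ethanol, stood at 991, 589 and 572 CPM against 3.85, 0.430 and 0.246 CPM. Transcription factors of the hepatocyte were called higher for 13 of 15 genes. Hnf4a stood at 218, 129 and 185 CPM against 0.879, 0.150 and 0.098 CPM. Cebpa, a factor that skin also expresses, was not called and overlapped at 152, 138 and 203 CPM against 134, 144 and 132 CPM.

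The genes with the widest gap between the lowest liver-transcript library and the highest of the other 3 were also liver genes. Apof, an apolipoprotein that hepatocytes secrete, stood at 138, 66.0 and 89.6 CPM against 0.220, 0.043 and 0.049 CPM. Bhmt, which remethylates homocysteine in liver, stood at 97.2, 71.6 and 47.0 CPM, with fewer than 3 counts in each other Sca-1neg library. Rbp4, the carrier of retinol in plasma, stood at 268, 155 and 158 CPM against 0.604, 0.215 and 0.319 CPM. The list of 25 chosen this way included the complement gene C8a, the asialoglycoprotein receptor gene Asgr1, Tfr2 (an iron sensor of hepatocytes), the transferrin gene Trf, the bile canaliculus pump gene Abcc2, the hepatic uptake carrier Slco1b2, and the cytochrome P450 genes Cyp1a2, Cyp2a12 and Cyp3a25. Trf stood at 1081, 652 and 588 CPM against 2.64, 1.44 and 0.737 CPM.

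**Figure D2:**
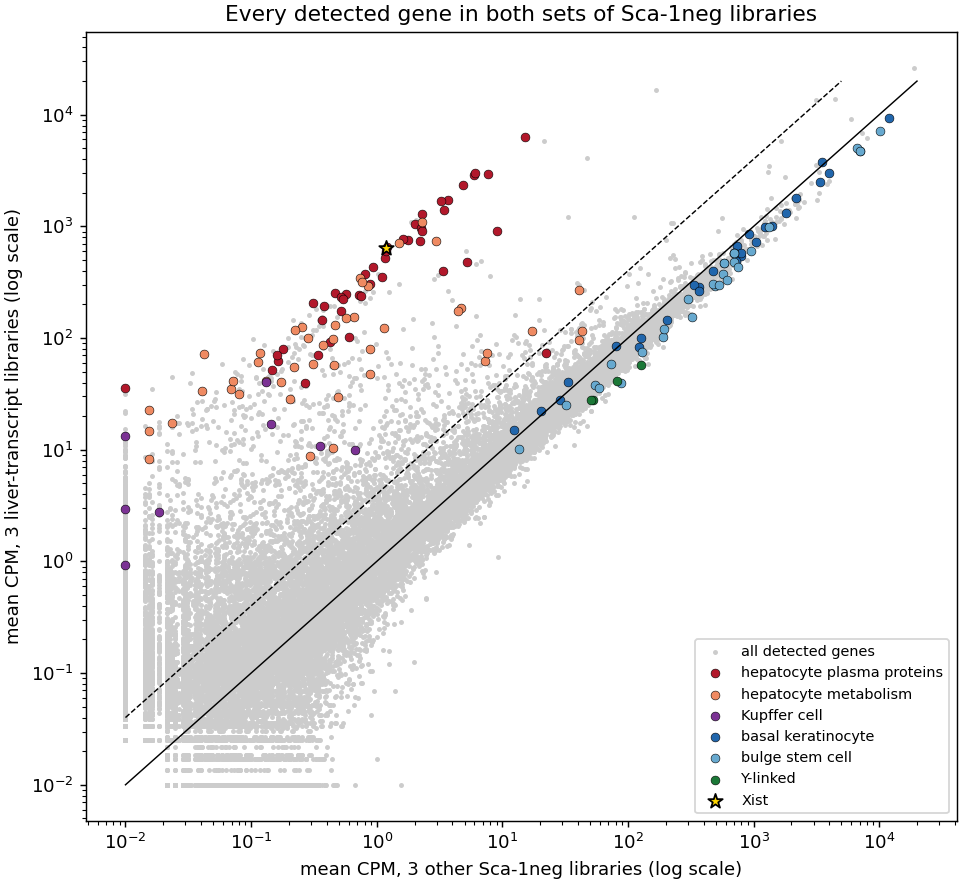
Mean CPM of each detected gene in the other 3 Sca-1neg libraries (x axis) against its mean in the 3 liver-transcript libraries (y axis), both log axes with values under 0.01 CPM drawn at 0.01; the solid line marks equal means and the dashed line a 4-fold higher mean. Plasma protein genes such as Alb (ratio 417) form a band far above the lines, while basal keratinocyte and bulge genes lie along the line of equal means or under it.

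Genes of both zones of the liver lobule and acute phase genes were called higher. In the liver lobule, periportal hepatocytes next to the inflowing blood and pericentral ones next to the outflow express different enzymes. All 12 periportal genes on the list were called higher, and 8 of 12 pericentral ones. Glul, the glutamine synthetase of the pericentral cells, stood at 410, 261 and 217 CPM against 48.0, 39.0 and 34.5 CPM. Oat, Cyp27a1, Axin2 and Rhbg were the pericentral genes that were not called. Acute phase genes, which hepatocytes switch on upon inflammatory signals, were called higher for 8 of 8. Saa2, a serum amyloid A gene, stood at 1622, 982 and 817 CPM against 4.89, 0.537 and 0.761 CPM. Of 5 detected fetal liver genes, 1 was called, Afp (alpha-fetoprotein). It stood at 2.22, 0.111 and 0.965 CPM against 0 counts in each of the others. In the library labelled tdT+ replicate 2 of Sca-1neg cells Afp lay under 3 counts, so its call rested on the floor there.

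The X chromosome transcript Xist and 3 of 4 genes of the Y chromosome also did not overlap between both sets. Xist was called higher, as were 5.75% of all detected genes. The 3 Y-linked genes were lower in all 3 libraries. In CPM so were 28.6% of all genes that averaged 20 CPM or more in the other 3. Xist is the RNA that silences one X chromosome in female cells, and all mice of the series are labelled male. It stood at 372, 1364 and 203 CPM in the 3 libraries against 1.26, 1.10 and 1.20 CPM in the others and 0.41 to 1.26 CPM in Sca-1+ libraries. Xist lies on the X chromosome at 103460366 to 103483254, and its antisense partner gene could not be told apart from it if reads were counted without strand. Of the Y-linked genes, Ddx3y, an RNA helicase, stood at 72.4, 40.8 and 59.0 CPM against 125, 131 and 129 CPM. Uty, a demethylase relative, stood at 36.4, 15.3 and 32.3 CPM against 53.1, 52.2 and 48.1 CPM. Kdm5d, a histone demethylase, stood at 33.2, 13.9 and 36.2 CPM against 47.9, 61.1 and 48.2 CPM. Eif2s3y, a translation factor subunit, overlapped at 63.6, 24.3 and 35.6 CPM against 63.5, 101 and 79.7 CPM. The 4 Y-linked genes together held 206, 94.3 and 163 CPM against 289, 345 and 305 CPM, a log2 ratio of the set means of -1.02. The library labelled tdT+ replicate 2 of Sca-1neg cells was thus the highest in Xist and the lowest in the Y-linked sum. In the library labelled tdT+ replicate 2 of Sca-1neg cells the Xist level did not follow the liver genes. Across 45 plasma protein genes the median ratio of Sca-1neg tdT+ replicate 1 to that library was 1.81, and for Xist it was 0.273. Between Sca-1neg tdT+ replicate 1 and Sca-1neg tdT- replicate 2 the ratios were close, 1.72 for the plasma protein median and 1.84 for Xist. Whether the Xist reads and the liver reads came from the same cells was not tested.

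Liver genes whose level differs between the sexes in mice gave unequal counts. Of 19 detected genes on the list of female-biased liver genes, 16 were called higher. Cyp2b9 stood at 56.4, 37.7 and 38.0 CPM against 0.330, 0.0215 and 0.0737 CPM. The steroid sulfotransferase Sult3a1 stood at 12.4, 5.49 and 7.39 CPM and had 0 counts in each other Sca-1neg library, which makes it at least 83.3-fold higher with 3 counts per library as the floor. Of 16 detected male-biased genes, 6 were called higher. Of these, Serpina6, the corticosteroid carrier of plasma, stood at 23.3, 6.04 and 19.2 CPM. Cyp4a12a, Cyp4a12b and Hsd3b5, which male livers make in quantity, were read at no more than 0.323 CPM in any of the 3 libraries, and the male urinary protein gene Mup20 stood at 1.45, 0.0554 and 2.01 CPM. Most counts of the male-biased list came from Moxd1, which was read in every library, at 361, 394 and 489 CPM against 599, 624 and 676 CPM. No test compared the female-biased with the male-biased list.

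Genes of other liver cell types were called in part. All 8 genes on the Kupffer cell list, the resident macrophages of liver sinusoids, were called higher, with sums of 111, 81.6 and 101 CPM, against 0.874 to 16.2 CPM in Sca-1+ libraries. Cd5l stood at 34.9, 32.5 and 53.2 CPM and Clec4f, a lectin that is a defining Kupffer cell gene, at 18.9, 14.2 and 18.0 CPM. Among the other 3 libraries Clec4f reached no more than 0.385 CPM. Of 13 genes of the liver sinusoidal endothelium 9 were called, among them the scavenger receptor Stab2 at 35.7, 20.8 and 34.1 CPM against 0.440, 0.107 and 0.0737 CPM. The sums of that list, 362, 355 and 391 CPM, lay within the range of the Sca-1+ libraries, 229 to 678 CPM, while Stab2 reached no more than 0.351 CPM there. Hepatic stellate cell genes were called for 8 of 12, with Reln at 34.3, 27.3 and 40.1 CPM against 1.26, 8.55 and 8.30 CPM. Lrat, on the same list, was not called and overlapped at 17.6, 13.4 and 76.6 CPM against 11.9, 23.3 and 41.2 CPM. Bile duct (cholangiocyte) genes were called for 5 of 12, while Sox9 and Epcam on that list are also skin genes and were not called higher.

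Few listed markers of other organs were called higher. The share over all detected genes was 5.75%, and each list below with a called gene lay above it. A count of 0 on lists this short cannot show that an organ was absent. None of the listed genes of kidney (10), stomach (7), adipose tissue (9), brain (11), mammary gland (5) or testis (8) was called higher. Exocrine pancreas gave 1 of 7 genes, with sums of 1.90, 2.70 and 3.10 CPM, intestine 3 of 11, lung 1 of 8, heart 1 of 9, skeletal muscle 2 of 11 and salivary gland 1 of 5. Of the intestinal genes, Apoa4, an apolipoprotein that mouse liver also makes, led at 9.57, 11.4 and 15.5 CPM with 0 counts in each other Sca-1neg library. The salivary gene was the amylase Amy1, also expressed in liver, at 23.6, 17.1 and 12.9 CPM against 1.87, 2.15 and 3.59 CPM. T and natural killer cell genes were called for 0 of 15, melanocyte genes for 0 of 10, mast cell genes for 0 of 6 and red cell genes for 1 of 12. The adult globin gene Hbb-bs overlapped at 96.5, 30.4 and 78.4 CPM against 57.0, 23.9 and 40.2 CPM.

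**Figure D3:**
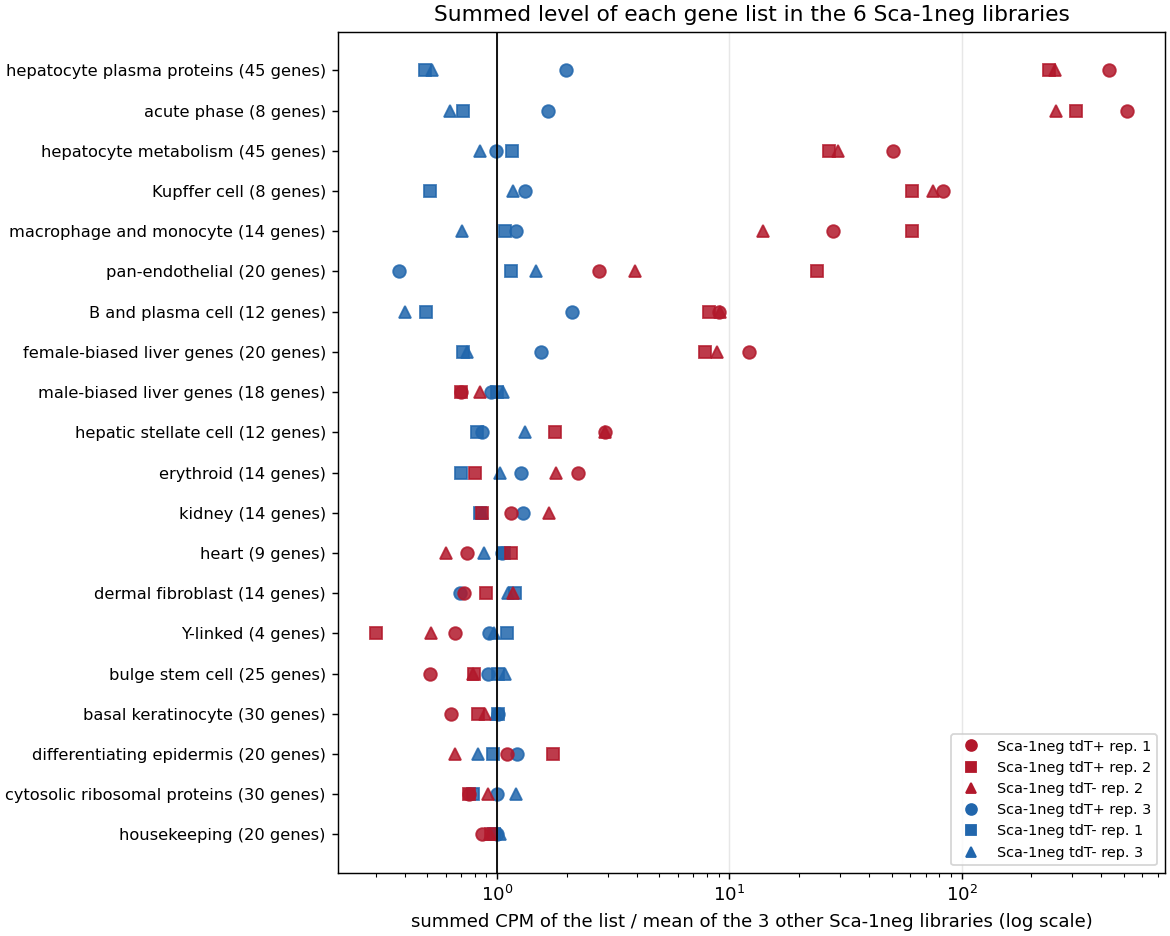
Summed CPM of 20 gene lists in each of the 6 Sca-1neg libraries, divided by the mean of the 3 other Sca-1neg libraries (log axis), with 1 point per library, red for the liver-transcript libraries and blue for the others. Plasma protein, acute phase, metabolism and Kupffer cell lists lie far to the right in all 3 red libraries, the kidney, heart and male-biased liver lists lie near 1, and of the 6 libraries the pan-endothelial list is highest in the library labelled tdT+ replicate 2 of Sca-1neg cells, whose sum was 1660 CPM.

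Genes of blood vessels and macrophages were also read in Sca-1+ libraries, at levels that reached or passed those of the 3. Over all detected genes 5.75% were called higher. The macrophage and monocyte list was called higher for 11 of 14 genes, with sums of 257, 563 and 128 CPM against 11.1, 9.90 and 6.50 CPM, and 99.7 to 988 CPM in Sca-1+ libraries. The pan-endothelial list was called for 10 of 20 genes. Its sums were 192, 1660 and 273 CPM against 26.4, 80.2 and 103 CPM, while the Sca-1+ tdT- libraries held 7097 and 7393 CPM and the Sca-1+ tdT+ libraries 102 to 205 CPM. The highest sum among the Sca-1neg libraries on both lists was thus that of the library labelled tdT+ replicate 2 of Sca-1neg cells.

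That library, labelled tdT+ replicate 2, also held genes that stood far above every other Sca-1neg library. Counting genes of at least 20 CPM, 44 exceeded every other Sca-1neg library more than 4-fold there and 13 more than 10-fold, against 6 and 1 in Sca-1neg tdT+ replicate 1. In Sca-1neg tdT- replicate 2 no gene exceeded the rest 4-fold, and the top one was the liver gene Cyp2a4 at 31.7 CPM, 2.43 times the next library. Selp, the P-selectin of activated endothelium, stood at 443 CPM in the library labelled tdT+ replicate 2. It stood at no more than 2.73 CPM in the other Sca-1neg libraries. The Sca-1+ tdT- libraries read it at 1419 and 1330 CPM. Sele, the E-selectin gene, stood at 410 CPM in the library labelled tdT+ replicate 2 against 1273 and 1136 CPM in Sca-1+ tdT- libraries. Vwf, which encodes the von Willebrand factor of endothelium, stood at 448 CPM, with 17.4 CPM in the next Sca-1neg library and 2306 and 2366 CPM in Sca-1+ tdT- libraries. All 10 genes at the top of this ranking, which included the cytokine genes Il6 and Csf3 and the chemokine scavenger Ackr1, were higher still in both Sca-1+ tdT- libraries. Ly6a, which encodes Sca-1 itself, stood at 24.6, 61.3 and 2.36 CPM in the liver-transcript libraries, 9.62, 5.97 and 2.92 CPM in the others and 149 to 297 CPM in Sca-1+ libraries. In Sca-1neg tdT+ replicate 1 the genes with the largest such gap were Igsf5, at 27.3 CPM against 1.44 CPM in the next library, and Vnn3, at 60.1 CPM against 11.6 CPM.

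**Figure D4:**
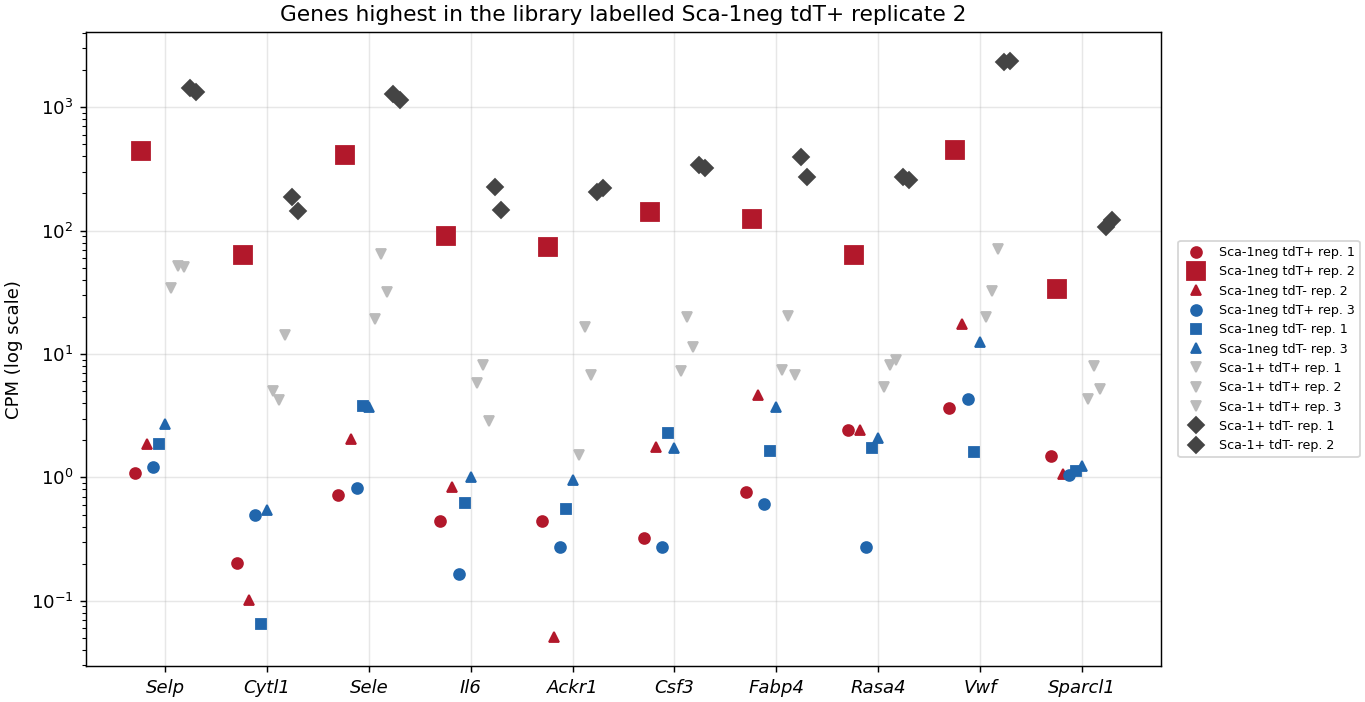
CPM (log axis) in all 11 libraries of the 10 genes that stood highest in the library labelled tdT+ replicate 2 of Sca-1neg cells relative to every other Sca-1neg library, with 1 point per library and separate symbols for Sca-1+ tdT- and Sca-1+ tdT+. For each gene the Sca-1+ tdT- libraries lie above that library, as for Selp at 1419 and 1330 CPM against 443 CPM.

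The plasma protein genes stood in similar proportions to each other across the 3 libraries. Over the 45 plasma protein genes, the ratio of Sca-1neg tdT+ replicate 1 to the library labelled tdT+ replicate 2 of Sca-1neg cells had a 10th to 90th percentile range of 1.62 to 2.09, and 43 lay within 1.5-fold of the median of 1.81. The ratio of Sca-1neg tdT- replicate 2 to that library had a median of 1.06, with 44 of 45 genes within 1.5-fold of it. The 36 metabolism genes measured this way gave a median of 1.84 for the first ratio, with 35 within 1.5-fold of it, and 1.02 for the second, with 29 within 1.5-fold. The basal keratinocyte genes gave medians of 0.715 and 0.941, with 25 and 22 of 27 within 1.5-fold. The bulge genes gave 0.796 and 1.23, with 17 and 14 of 23 within 1.5-fold. These are ratios of single libraries and have no replicate error.

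Traces of the same genes were read in the other 8 libraries. Of the 45 plasma protein genes, 44 were kept for a wide gap between the lowest liver-transcript library and the highest other Sca-1neg library. That choice by itself lowers the shares in the other Sca-1neg libraries. The summed CPM of 44 plasma protein genes, as a share of its mean in the liver-transcript libraries, was 0.569% in Sca-1neg tdT+ replicate 3, 0.111% and 0.114% in Sca-1neg tdT- replicates 1 and 3, and 0.149% to 0.385% in Sca-1+ libraries. Such a sum is set mostly by the genes with the most counts. Between 37 and 43 of the 44 genes had at least 3 counts in each of these libraries. Whether these reads were in the cells or passed between libraries during preparation or sequencing was not tested.

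Among the 1880 genes were also some that no list held and that were singled out after their values were seen. Of genes that averaged 100 CPM or more in the 3 libraries, 53 were on no list, 50 of them protein coding. Gm10800, a predicted gene on chromosome 2 at 98666547 to 98667301, stood at 24212, 13013 and 12834 CPM against 415, 33.6 and 55.8 CPM, and was the entry with the most counts of the whole set. Gm10801, beside it on chromosome 2 at 98662237 to 98664083, stood at 5884, 3049 and 3288 CPM against 122, 8.04 and 11.6 CPM. Both are predicted models with near-identical copies, so their counts depend on how reads with several matches were assigned, which is not given in the sources used here. The mitochondrial ribosomal RNA gene mt-Rnr2 stood at 18319, 11520 and 10824 CPM against 4984, 1950 and 2436 CPM. Its Sca-1+ range of 1056 to 6488 CPM also lay under all 3. Rn7sk, a small nuclear RNA that regulates transcription elongation, stood at 1679, 925 and 1022 CPM against 175, 20.8 and 139 CPM. The complement gene C3, which hepatocytes and other cells make, stood at 8449, 4334 and 4639 CPM against 33.6, 17.6 and 12.9 CPM. The water channel gene Aqp1 followed the vessel genes instead, at 36.3, 594 and 21.5 CPM, while the Sca-1+ tdT- libraries read 2410 and 2275 CPM.

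Basal keratinocyte genes were read at levels near those of the other Sca-1neg libraries, somewhat lower on average, and bulge genes lay lower. Values over genes of every kind, not only skin genes, are given first. A gene that takes a larger share of a library lowers the CPM of all others, so the scaling matters here: over 7854 genes that averaged 20 CPM or more in the other 3, the median log2 ratio was -0.24 in CPM, -0.16 after TMM scaling and -0.09 with DESeq2 size factors, a shift of 0.15. Of these genes 7160 (91.2%) lay within 1.5-fold, a band chosen after the values were seen. In CPM 2246 (28.6%) were lower in all 3 libraries than in any of the others and 282 (3.59%) higher. With TMM scaling the numbers were 1750 lower and 383 higher, and with DESeq2 size factors 1192 lower and 532 higher. In bulk RNA, fewer cells of a type and less RNA per cell cannot be told apart.

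The basal keratinocyte list had 29 genes at that level, all within 1.5-fold, where 91.2% of all genes at that level were. Their median ratio was 0.79 (0.88 with DESeq2 size factors). In CPM 12 of them were lower in all 3 libraries, where 28.6% of all genes at that level were. With DESeq2 size factors 10 of the 29 were lower, against 1192 of 7854. Krt5 stood at 7318, 8992 and 11799 CPM against 11316, 12047 and 12406 CPM, and overlapped. Krt14, its partner keratin, overlapped at 2775, 3839 and 4815 CPM against 2608, 4010 and 3911 CPM. Col17a1, a collagen that anchors basal cells to the basement membrane, was lower at 3599, 5291 and 5339 CPM against 6412, 7697 and 6988 CPM. Sfn, an adaptor protein of stratifying epithelia, overlapped at 522, 733 and 728 CPM against 781, 709 and 720 CPM. Itga6, the CD49f of the gate, overlapped at 344, 566 and 492 CPM against 564, 640 and 552 CPM. The median ratio of the list was lowest in Sca-1neg tdT+ replicate 1, at 0.65, against 0.90 and 0.78.

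Bulge stem cell genes lay lower. Of 24 genes at that level, 11 lay within 1.5-fold (16 with DESeq2 size factors), where 91.2% of all genes at that level did in CPM. In CPM 9 were lower in all 3 libraries, where 28.6% of all genes at that level were. With DESeq2 size factors 8 were lower, against 1192 of 7854. The median ratio was 0.65 (0.72 with DESeq2 size factors). Krt15, a bulge keratin, overlapped at 5590, 6532 and 9484 CPM against 9192, 9650 and 11635 CPM. Cd34, the other gate marker, was lower in all 3 at 417, 761 and 613 CPM against 839, 898 and 1138 CPM, and Sca-1+ libraries ranged from 21.7 to 386 CPM. Sox9, a transcription factor of follicle stem cells, was lower in all 3 at 394, 377 and 530 CPM against 831, 694 and 735 CPM. Lgr5, a receptor of follicle stem cells that amplifies Wnt signals, overlapped at 154, 105 and 208 CPM against 204, 374 and 389 CPM. Postn, an extracellular matrix protein, overlapped because the library labelled tdT+ replicate 2 of Sca-1neg cells was the highest of all 6 at 8598 CPM. These 5 bulge genes were all above 100 CPM in each of the 3 libraries.

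**Figure D5:**
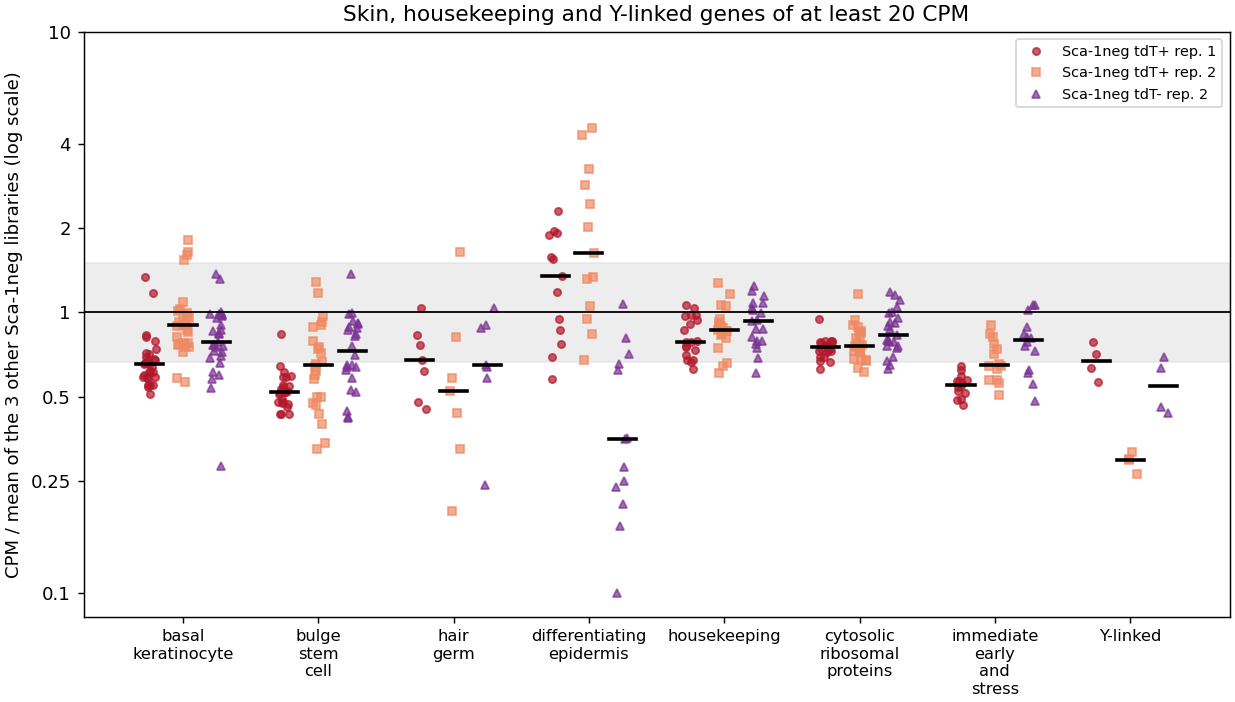
Ratio of each gene's CPM to the mean of the other 3 Sca-1neg libraries (log axis), in each of the 3 liver-transcript libraries, for genes of 8 lists that averaged 20 CPM or more in the other 3; points are genes, black bars list medians and the grey band the range within 1.5-fold. Basal keratinocyte medians are 0.65, 0.90 and 0.78, bulge medians 0.52, 0.65 and 0.73, and Y-linked medians 0.67, 0.30 and 0.54.

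Counts of genes within 1.5-fold on the lists of generally expressed genes were near the share of 91.2% over all genes at that level. All 19 housekeeping genes and all 23 cytosolic ribosomal protein genes at that level lay within 1.5-fold, with median ratios of 0.87 and 0.81. Actb, cytoplasmic actin, overlapped at 1250, 1486 and 1522 CPM against 1125, 1459 and 1237 CPM. All 9 proliferation genes also lay within 1.5-fold. Immediate early and stress genes, which dissociation of tissue can induce, were lower in all 3 libraries for 10 of 14 (10 with DESeq2 size factors), where 28.6% of all genes at that level were, with a median ratio of 0.67. Fos stood at 2164, 2278 and 3227 CPM against 3894, 4152 and 3827 CPM. Differentiating epidermis had a median ratio of 1.17, and its libraries disagreed: Krt10, a keratin of suprabasal cells, stood at 1092, 2389 and 96.7 CPM against 695, 805 and 171 CPM. Sca-1neg tdT- replicate 2 was the lowest of all 6 in that gene and the library labelled tdT+ replicate 2 of Sca-1neg cells the highest. On the upper follicle and sebaceous list 2 of 15 genes were called higher. The fat-synthesis enzyme gene Scd1, which liver also expresses, stood at 1251, 813 and 1174 CPM against 97.8, 359 and 223 CPM. Mgst1, a glutathione transferase of sebaceous cells and liver, stood at 286, 186 and 156 CPM against 28.2, 53.6 and 73.6 CPM.

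The 15 genes with the widest gap in the lower direction were listed in the same way. Of these, Myoc, which encodes the secreted protein myocilin, stood at 10.4, 5.99 and 16.6 CPM against 34.7, 36.7 and 39.7 CPM. Gli1, a target of hedgehog signalling, stood at 89.2, 104 and 115 CPM against 207, 181 and 205 CPM. Ccn1, a matricellular target of the factor YAP, stood at 860, 1355 and 1352 CPM against 2037, 2141 and 2349 CPM. Ednra, the endothelin receptor, and Nog, the BMP antagonist noggin, were on the same list, as was Ddx3y.

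The labels allow 2 tests in which the 3 libraries take part, both made with edgeR's quasi-likelihood test over 11 libraries with Benjamini-Hochberg adjustment. In both, the library labelled tdT+ replicate 2 of Sca-1neg cells counted as tdT+, though its tracer read 2.05 CPM. Between Sca-1neg tdT+ and Sca-1neg tdT-, 11 of 20307 genes (0.0542%) were higher and 2 (0.00985%) lower at an adjusted p under 0.05 (11 and 0 with DESeq2 size factors), and 1691 had an unadjusted p under 0.05. Of 1741 tested genes among those called higher in the liver-transcript libraries, 0 passed (74 at an unadjusted p under 0.05), and DESeq2's Wald test passed 16. The group of tdT+ libraries held 2 liver-transcript libraries and the tdT- group 1. The 1741 genes, Alb among them, were picked as high in those libraries, so a wide spread within each group was built in. Few passes, and a high adjusted p for Alb, follow from that choice. Alb had a log2 difference of 1.20 with a standard error of 2.47 (adjusted p = 0.92), and Xist 3.03 with 2.34 (adjusted p = 0.79). The gene with the lowest p among those 1741 was Hlx, a homeobox factor, at a log2 difference of 3.70 (standard error 0.90, adjusted p = 0.22). Without the 3 libraries, 1 tdT+ library faced 2 tdT- libraries and the lone sample was assumed to vary like the others. The numbers were then 22 higher (0.102%) and 16 lower (0.0745%) of 21477 genes. The genes called in both fits numbered 6, which is 46.2% of the 13 and 15.8% of the 38. They were Akna, Cd163l1, Cd3e, Cd7, Ikzf1 and Ly6d, all higher in tdT+, of which Cd3e and Cd7 encode T lymphocyte surface proteins. The count of 13 moved with single libraries. Among Sca-1neg libraries, leaving out tdT+ replicate 3 gave 7, and leaving out the one labelled tdT+ replicate 2 gave 2. With edgeR, leaving out tdT- replicate 3 gave 0 (1001 at an unadjusted p under 0.05), and no other tool was run on those libraries. Of the Sca-1+ tdT+ libraries, leaving out replicates 2 and 3 in turn gave 3 and 1.

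The second test compared Sca-1neg with Sca-1+ cells. With all 11 libraries, 1883 genes (9.27%) were higher and 1790 (8.81%) lower in Sca-1neg cells by the same edgeR test. Of the 1741 tested genes among those called higher in the liver-transcript libraries, 78 were higher and 46 lower. As in the first test, the choice of these genes built in their spread among Sca-1neg libraries. DESeq2's Wald test called 672 higher and 87 lower of them. Without the 3 libraries, the median log2 difference over the 1247 genes of that set then tested was -2.58. These genes were picked as low in the Sca-1neg libraries that stay in that fit. The choice alone pulls the median down, so it is not a result about these genes. Among the plasma protein genes the median log2 difference was 7.98, yet 1 of 45 passed, while 44 had an unadjusted p under 0.05. Alb had a log2 difference of 8.04 with a standard error of 2.75 (adjusted p = 0.084), and without the 3 libraries 0.06 (adjusted p = 0.96). Xist had a log2 difference of 8.42 with a standard error of 2.56 (adjusted p = 0.061), and without the 3 libraries 0.97 (adjusted p = 0.34). Without the 3 libraries, 1726 genes (8.04%) were higher and 2398 (11.2%) lower, and 2716 genes were called in both fits, 73.9% of the first and 65.9% of the second.

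Genes of vessels and macrophages differed between both fits. With all 11 libraries 8.81% of all genes tested were lower and 9.27% higher in Sca-1neg cells by edgeR's test. In that fit 1 of 20 pan-endothelial genes and 1 of 14 macrophage and monocyte genes were lower, near the share over all genes. Without the 3 libraries 19 of 20 and 14 of 14 were lower, with median log2 differences of -5.26 and -6.18. Hlx had a log2 difference of -3.26 (adjusted p = 0.0050) with all libraries and -5.07 without the 3. Trpv2, a calcium channel of macrophages, went from -2.66 (adjusted p = 0.0030) to -4.01. Both genes were picked as low in the Sca-1neg libraries that stay in the second fit, which pulls their difference down there. The T and natural killer cell list was lower for 11 of 13 tested genes with all libraries and for 13 of 14 without the 3. Bulge genes gave the same count in both fits, 22 of 25 higher in Sca-1neg cells. The number called among the tested genes of the liver-transcript set depended on the tool and on single libraries. It was 124 of 1741 in all, 759 with DESeq2's Wald test, and 301 of 1756 without Sca-1neg tdT+ replicate 3. Leaving out Sca-1+ tdT- replicates 1 and 2 in turn gave 16 and 15, each of 1880 tested. It was 62 of 1589 without Sca-1neg tdT+ replicate 1. Leaving out Sca-1+ tdT+ replicates 1, 2 and 3 in turn gave 65 of 1724, 62 of 1743 and 58 of 1748.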

How the data were processed

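The deposited tables hold raw counts of reads per gene, whole numbers that the authors made from TruSeq RNA v2 libraries; the submitters' processing notes name bcl2fastq 2.20.0.422, FastQC, STAR, featureCounts, DESeq2 1.18.1 and the mm10 build. For the annotation release, strand setting and reads with several matches, the choice is not given in the sources used here. The 55536 gene rows were read by identifier, with symbols and coordinates from GENCODE M21 (55450 matched), and the tracer row was left out of totals. Counts were divided by total gene counts to give CPM. Ratios set counts under 3 in a library to 3. Label-based tests used edgeR 4.0.16 (R 4.3.3; 4 group means over 11 libraries, TMM, filterByExpr, robust quasi-likelihood fit), with DESeq2 1.42.0 as an alternative; the steps were tested on simulated data. Standard errors were computed as the log2 difference over the square root of F. No pair of libraries agreed within sampling noise. Replicates are pools of separate mice as far as the labels say; p-values measure the spread between these libraries.

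The 3 libraries, the 52 gene lists (703 of 706 genes found) and the rules were chosen with earlier results of these data known. Named genes were the 25 with the largest ratio of the lowest liver-transcript library to the highest of the other 3 (at least 20 CPM, without predicted genes), the 15 with the smallest reverse ratio, up to 10 per library that exceeded the other 5, the leading members of each list, the gate markers, Xist, Y-linked genes and the lowest p of each test. Promoter sequences are from RefSeq (GRCm38.p6). Some named genes are not reported here.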

Additional observations from a re-analysis of the deposited data

How the results depend on the processing

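The number of genes called higher, 1880, was 748 when a gene needed 10 CPM in 1 library. Leaving out each library in turn gave 1883 to 3864. The number called lower, 19, was 12 with DESeq2 size factors, 0 with 10 CPM, 239 and 1 with ratios of at least 2 and 8, and 7 to 68 with a library left out. The plasma protein median of 8.69 ranged from 8.23 to 10.38 with a library left out, 10.38 without Sca-1neg tdT+ replicate 3. The same ranges were -0.47 to -0.19 for basal keratinocyte genes (-0.33 with all), -0.77 to -0.43 for bulge genes (-0.60) and -1.28 to -0.76 for the Y-linked sum (-1.02). For Sca-1neg tdT+ against tdT-, the 13 calls became 400 with DESeq2's Wald test, 81 with no low-count filter, 38 without the 3 libraries and 0 to 14 with a library left out. For Sca-1neg against Sca-1+, the 3673 calls became 5735 with DESeq2's Wald test and 1769 to 3712 with a library left out, 1769 and 2234 without Sca-1+ tdT- replicates 1 and 2. The cause of these differences was not tested.

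Directions turned in a few genes. Without the 3 libraries, the log2 difference between tdT+ and tdT- was -0.36 for Trpv2 (1.98 with all) and 0.12 for Uty (-0.27), and that between Sca-1neg and Sca-1+ was 0.12 for Kdm5d (-0.21). With a library left out, Uty ranged from -0.66 to 0.10 between tdT+ and tdT- (0.10 without the one labelled tdT+ replicate 2), and Fads6 from -0.046 to 1.75 (0.58 with all, -0.046 without tdT+ replicate 1).

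The replicate number as a block gave 15 calls for tdT and 3645 for Sca-1, of which 256 were among the genes called higher in the 3 libraries (124 without the block). Deviations of same-numbered Sca-1neg tdT+ and tdT- samples correlated at -0.415, 0.315 and 0.589 for replicates 1, 2 and 3. The same-numbered sample was the best match for replicates 2 and 3 and not for replicate 1. For replicate 1, only the tdT+ library was a liver-transcript library. These values therefore cannot decide whether the numbers pair the samples. Genes with few counts in the other 3 libraries have ratios limited by depth, since a count under 3 was set to 3.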
